A study of Homo sapiens with 24 samples.

Results

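The libraries of siGATA1-1 and siGATA1-2, both siRNAs against GATA1, were compared directly with each other in K562 cells, a human erythroleukemia line. By their labels, 4 libraries received siGATA1-1 at 25 nM and 4 received siGATA1-2 at 6.25 nM, which makes 8 of the 24 libraries of the series. RNA was read 48 hours after transfection by a pooled RNA-seq method that counts the 3' ends of polyadenylated transcripts. The other 16 libraries came from K562 cells given a non-targeting siRNA, siNC-1 or siNC-2, with 4 libraries of each at 25 nM and 4 of each at 6.25 nM. The sequence of the siRNA and its dose changed together between these groups and cannot be told apart. The controls were transfected at both doses with the same siRNAs, and their 25 nM libraries were compared with their 6.25 nM libraries as the dose shift in controls. Handling that differed between the 25 nM and the 6.25 nM libraries cannot be told apart from dose.

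GATA1 is the transcription factor that switches on globin, heme synthesis and other red cell genes, and K562 cells express embryonic and fetal globins under its control. An siRNA is loaded into an Argonaute protein, which cuts messages that match it along its length and can also lower other messages that match its seed. Several siRNAs, each with dose-matched non-targeting controls, are used for this reason, and a direct comparison asks where siRNAs with the same target leave cells in different states. Ribosomal proteins, which turned out to matter here, are the structural proteins of the ribosome; their short, abundant messages begin with a run of pyrimidines through which growth signals are known to control their translation and stability.

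Total counts ran from 183971 to 378439 with siGATA1-1 and from 102225 to 226888 with siGATA1-2, and replicate 3 was the shallowest in both groups. Of 11 K562 and erythroid markers all 11 were detected. Their summed levels were 12786 to 16720 CPM (counts scaled for library size) with siGATA1-1, 13144 to 18903 with siGATA1-2 and 18702 to 29804.5 in controls. Of markers of other lineages, SPI1, LYZ, TYROBP, CD3D, EPCAM and ITGA2B had counts in each of the 8 knockdown libraries, while MPO, ITGB3, PF4, PPBP, GP9, KRT5 and COL3A1 were at 0 in all 8. Summed myeloid markers (5 of 6 detected) were at 633 to 979 CPM with siGATA1-1, 657 to 1220 CPM with siGATA1-2 and 367 to 678 CPM in controls. One control library, siNC-2 at 25 nM replicate 1, had the lowest total of the series (88290 counts) and stood apart from the other controls, with RPL26 at 4196 CPM against 1689 to 2337 in the other 7 controls at 25 nM. It takes no part in the direct difference but enters the dose shift in controls and the estimate of the spread, so values without it are given where they change a result.

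GATA1, the target, was at similar levels with both siRNAs. With siGATA1-1 it measured 307, 308, 242 and 300 CPM (replicates 1 to 4), and with siGATA1-2 218, 261, 333 and 165 CPM. The groups overlapped, the highest and the lowest library both being siGATA1-2. The difference, siGATA1-1 minus siGATA1-2, was 0.30 on the log2 scale (standard error (SE) 0.20, 95% interval -0.10 to 0.69), with an adjusted p of 0.676 in edgeR and p = 0.286 in an exact two-sided permutation test. In controls GATA1 ran from 389 to 717 CPM at 25 nM and from 478 to 630 CPM at 6.25 nM, so every control library lay above every knockdown library. In 1 random thinning of libraries to equal depth the GATA1 difference was -0.03, a single draw that does not show equal knockdown.

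Across 6738 genes tested, 6 were higher and 9 were lower with siGATA1-1 than with siGATA1-2 at an adjusted p under 0.05. These 15 genes are 0.223% of those tested, 0.089% higher and 0.134% lower, and 611 genes had an unadjusted p under 0.05. Of the 9 lower genes 7 encode ribosomal proteins, and the others were NDUFC1 and SSR3. The 6 higher genes were PSPH, APOBEC3C, RNF40, PAICS and the alpha globin genes HBA1 and HBA2. The median SE of a difference was 0.43 on the log2 scale, so that differences of this size in single genes were often not detectable at this depth. In bulk RNA, fewer cells that express a gene and less RNA per cell cannot be told apart.

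The dose shift in controls shares no library with the direct difference. At 25 nM 46 genes were higher (0.683%) and 49 were lower (0.727%) than at 6.25 nM, 95 in all (1.41%). Of the 9 genes lower with siGATA1-1, 8 were also called lower in controls at 25 nM, which is 88.9% of the direct calls and 16.3% of the 49 control calls. SSR3 was the exception. Of the 6 genes higher with siGATA1-1, 0 were called in the controls. In the other direction, 49 of the 49 genes lower in controls at 25 nM had a direct difference below 0 (median -0.40, 28 with an unadjusted p under 0.05), and 41 of the 46 higher ones had a direct difference above 0 (median 0.42, 25 with an unadjusted p under 0.05). The median direct difference of all genes tested was 0.00267. Without siNC-2 at 25 nM replicate 1 the controls gave 37 higher and 47 lower genes, of which 33 and 47 had the same sign in the direct difference, and 8 of the 9 genes lower with siGATA1-1 were again among them.

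**Figure D1:**
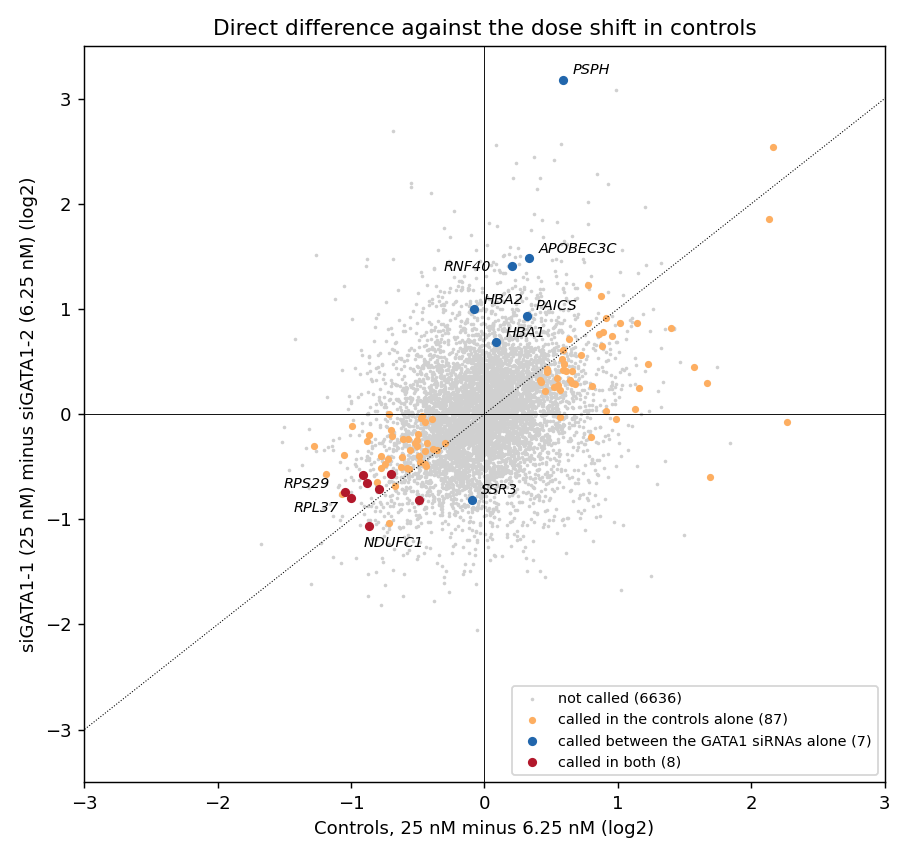
Each point is 1 of the 6738 genes tested, with the 25 nM minus 6.25 nM difference in controls on the horizontal axis and the siGATA1-1 minus siGATA1-2 difference on the vertical axis, both on the log2 scale; the dotted line marks equal values. The 8 genes called in both comparisons lie in the lower left, and the 6 genes higher with siGATA1-1 lie above the dotted line, with control values from -0.07 to 0.59.

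Ribosomal protein genes made up most of the lower genes. RPL37, a protein of the large subunit, measured 1221, 1148, 1309 and 949 CPM with siGATA1-1 and 2117, 2004, 2011 and 1873 CPM with siGATA1-2. The groups did not overlap, and the direct difference was -0.80 (SE 0.14, adjusted p = 3.95e-04). In controls RPL37 ran from 635 to 1293 CPM at 25 nM and from 1788 to 2335 CPM at 6.25 nM, a shift of -0.997 (SE 0.10). The siGATA1-2 libraries lay within the range of the controls of their dose, and of the siGATA1-1 libraries replicate 3 alone lay above its controls. The direct difference minus the control shift was 0.20 (95% interval -0.13 to 0.53).

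RPS29, a small subunit protein, measured 708, 767, 690 and 577 CPM with siGATA1-1 and 1302, 1215, 1136 and 925 CPM with siGATA1-2, with no overlap. The direct difference was -0.74 (SE 0.16, adjusted p = 0.0138) and the control shift -1.05 (SE 0.11), or -0.96 without siNC-2 at 25 nM replicate 1. RPS21, also of the small subunit, measured 1713, 1607, 1692 and 1531 CPM with siGATA1-1 and 2376, 2749, 2397 and 2225 CPM with siGATA1-2, a direct difference of -0.58 beside a control shift of -0.91.

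RPLP2, an acidic protein of the ribosomal stalk, was the most abundantly counted of the lower genes. It measured 2632, 2663, 2859 and 2486 CPM with siGATA1-1 and 3900, 4215, 3783 and 3876 CPM with siGATA1-2, and differed by -0.57 (SE 0.11, adjusted p = 0.00561) beside -0.70 in controls. The remaining 3 genes, RPL37A, RPL39 and RPS13, had direct differences of -0.65, -0.81 and -0.71 and control shifts of -0.88, -0.49 and -0.79. None of their ranges overlapped between the knockdown groups. RPL39 is the 1 of the 7 whose direct difference was larger in size than its control shift; the difference of the 2 was -0.33 (95% interval -0.77 to 0.12).

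**Figure D2:**
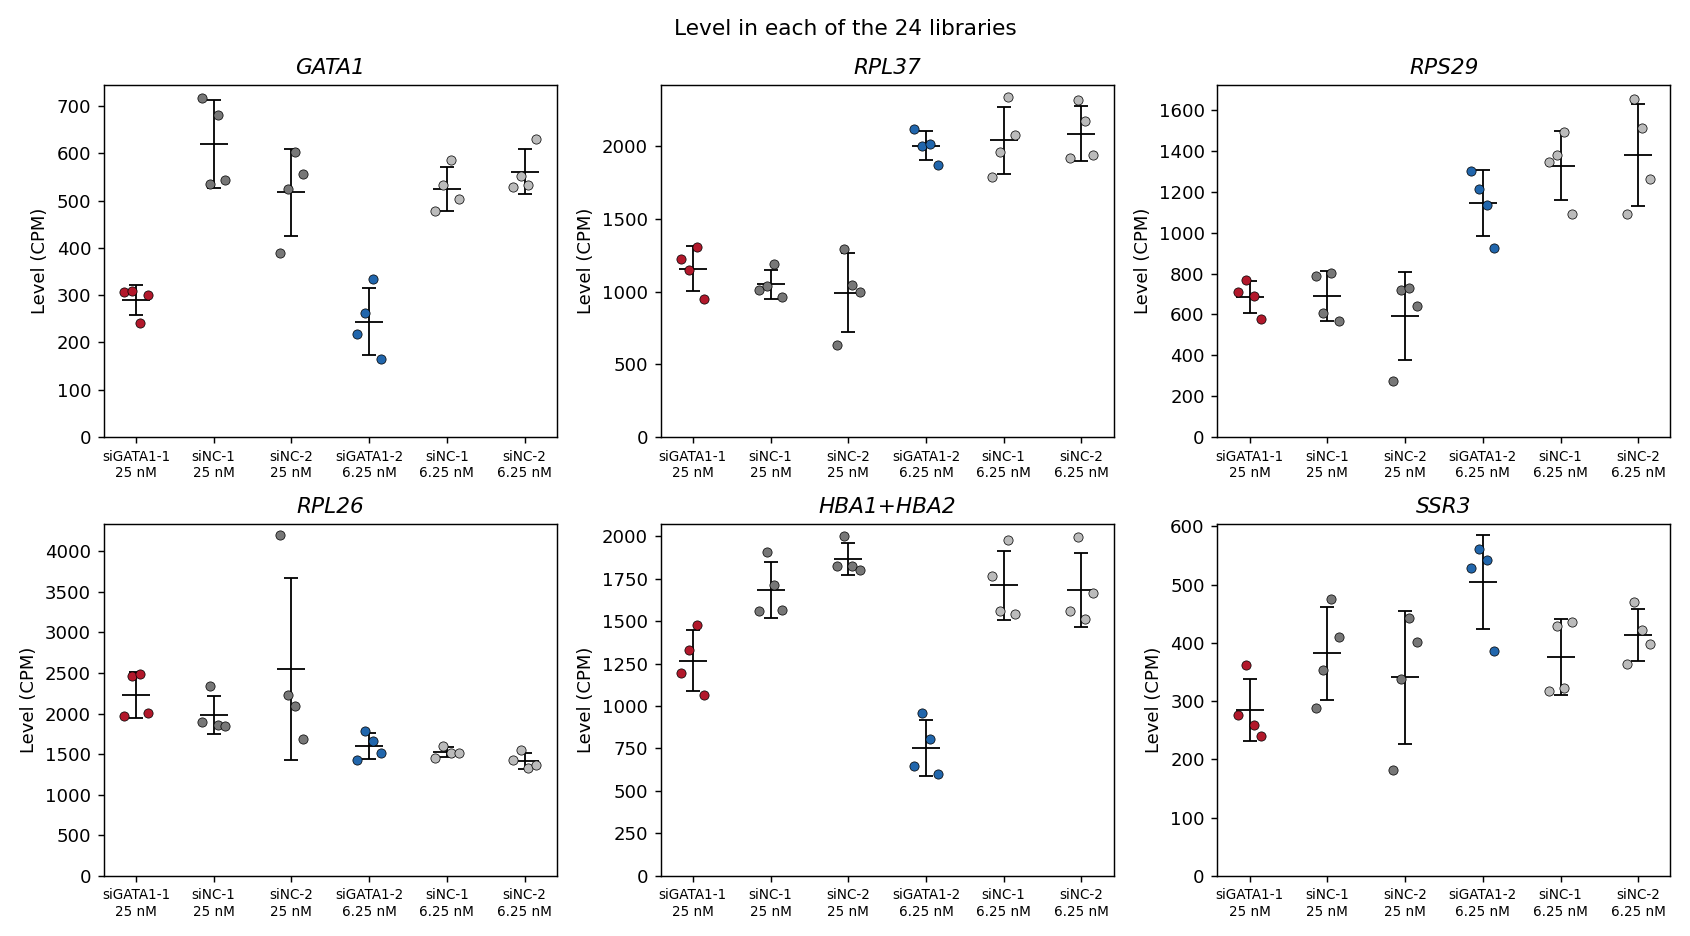
Levels of 6 genes in CPM (vertical axes, from 0) in each of the 24 libraries, grouped by siRNA and dose, with the mean and SD of 4 libraries in black. RPL37 and RPS29 separate by dose in knockdown and control libraries alike, HBA1 and HBA2 summed are lowest with siGATA1-2 and do not separate by dose in controls, and 1 control library at 25 nM lies apart for RPL26.

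Of 69 ribosomal protein genes tested 7 were called lower (10.1%) and 0 higher. Of the 69 differences 43 were below 0 and 26 above, with a median of -0.09 beside 0.00267 for all genes, and the median control shift was -0.14. Ranges of the 2 knockdown groups did not overlap for 14 of the 69 in the lower direction (20.3%) and for 5 in the higher direction (7.25%), against 2.24% lower and 2.85% higher among all genes tested. Summed over the 7 lower genes, the level was 7398 to 8825 CPM with siGATA1-1 and 11844 to 13585 CPM with siGATA1-2. Summed over the other 62, the median was 100619 CPM with siGATA1-1 and 96226 CPM with siGATA1-2, with overlapping ranges. Many of these genes have near-identical processed pseudogenes, between which the authors' counting could split reads.

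In the controls 14 of the 69 were called lower and 3 higher at 25 nM. The 3 higher ones were RPL26, RPL30 and RPL35A, all of the large subunit, with control shifts of 0.60, 0.47 and 0.42. Their direct differences were 0.48, 0.40 and 0.32, with adjusted p-values of 0.207, 0.418 and 0.461. RPL26 measured 1972, 2464, 2488 and 2004 CPM with siGATA1-1 and 1427, 1786, 1667 and 1515 CPM with siGATA1-2, with no overlap. Without siNC-2 at 25 nM replicate 1 its direct difference passed the test (0.48, SE 0.12, adjusted p = 0.0260) and the control shifts were 0.44 for RPL26, 0.31 for RPL30 (adjusted p = 0.0175) and 0.25 for RPL35A, which was no longer called (adjusted p = 0.0908). Across the 69 genes the direct difference and the control shift had a Pearson r of 0.74 (Spearman rho 0.74), or 0.71 without that library, as a description across genes, which are not independent replicates; across all 6738 genes r was 0.25.

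**Figure D3:**
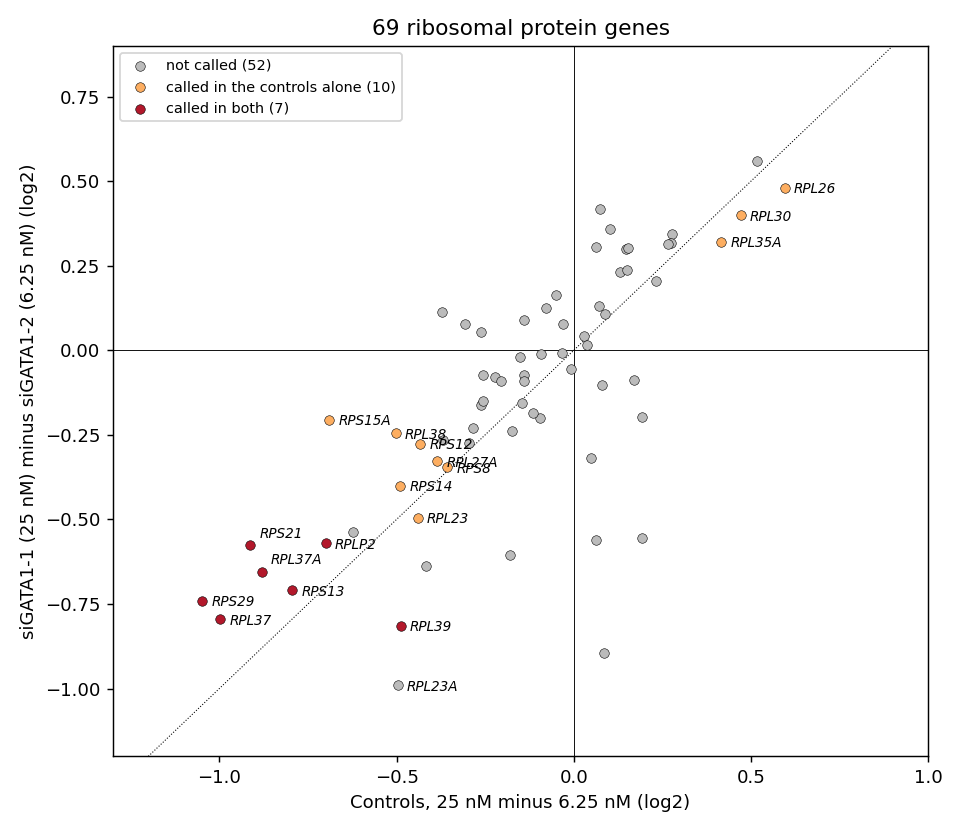
Each point is 1 of 69 ribosomal protein genes, with the 25 nM minus 6.25 nM difference in controls on the horizontal axis and the siGATA1-1 minus siGATA1-2 difference on the vertical axis, both on the log2 scale; the dotted line marks equal values. The 7 genes called in both comparisons lie at the lower left and RPL26, RPL30 and RPL35A at the upper right, close to the line.

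For the 7 ribosomal protein genes called in both comparisons the shift was below 0 with each control siRNA. Their call on the mean of both control siRNAs, in these same libraries, nearly fixed that sign in advance. RPL37 differed by -0.96 between doses with siNC-1 and by -1.04 with siNC-2, RPS29 by -0.94 and -1.16, and RPLP2 by -0.75 and -0.65. Of the higher genes, RPL26 differed by 0.38 with siNC-1 and 0.81 with siNC-2, RPL30 by 0.25 and 0.69, and RPL35A by 0.25 and 0.58. None of these 3 was called with siNC-1 alone, and the siNC-2 values include the library that stands apart. With siNC-1 the totals at 25 nM (322217 to 473098) lay above those at 6.25 nM (178917 to 293901). With siNC-2 they overlapped, 88290 to 455988 at 25 nM and 135533 to 279028 at 6.25 nM. With all libraries thinned to the shallowest total the control shift of RPS29 was -1.04 (adjusted p = 1.38e-12). In the direct difference RPS29 was not called with thinned libraries. EVADR, a long noncoding RNA, was also lower at 25 nM in controls (-1.19, SE 0.15, adjusted p = 3.04e-09). With siGATA1-1 EVADR measured 193 to 229 CPM and with siGATA1-2 250.1 to 358 CPM (-0.57, SE 0.21, adjusted p = 0.359). Of the other genes named for their control shifts, EVADR, DDX19B and C1orf159 stayed called in controls with thinned libraries. SLC35F6, FOXRED2, PEX16, PTRHD1, NACA2 and PI4KB did not (adjusted p from 0.0587 to 0.632).

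The starts of the ribosomal protein genes are shown because these messages are known for the pyrimidine run at which they begin, and because members with such a run lay on both sides. Windows from RefSeq (GRCh38.p14), 30 bases before to 20 after the annotated start, are printed 5′ to 3′ on the strand of the gene, with the longest run of C and T that touches the start in capitals.
RPL37A (chr2:216498814-216498863, plus strand): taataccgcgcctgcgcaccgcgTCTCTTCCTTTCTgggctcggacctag
RPL39 (chrX:119791611-119791660, minus strand): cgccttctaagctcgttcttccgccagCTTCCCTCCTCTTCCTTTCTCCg
RPLP2 (chr11:809937-809986, plus strand): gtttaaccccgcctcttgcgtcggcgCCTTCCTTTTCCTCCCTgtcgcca
RPS13 (chr11:17077648-17077697, minus strand): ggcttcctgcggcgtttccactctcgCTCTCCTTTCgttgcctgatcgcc
RPS21 (chr20:62387073-62387122, plus strand): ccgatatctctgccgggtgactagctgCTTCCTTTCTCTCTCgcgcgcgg
RPS29 (chr14:49598691-49598740, minus strand): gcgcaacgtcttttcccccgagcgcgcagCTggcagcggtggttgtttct
RPL26 (chr17:8383174-8383223, minus strand): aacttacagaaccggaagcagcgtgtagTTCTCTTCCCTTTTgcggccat
RPL35A (chr3:197950160-197950209, plus strand): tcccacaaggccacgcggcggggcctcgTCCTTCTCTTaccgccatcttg
Of the 7 lower genes 6 had an entry, and of the 3 genes higher at 25 nM in controls 2 are printed, RPL30 being left out. A run of at least 8 C or T bases touching the window from 5 bases before to 10 bases after the start was present in 5 of these 6, and also in RPL26 and RPL35A, which were higher at 25 nM. Among 56 ribosomal protein genes with an entry 46 had such a run (82.1%), against 12.8% of 35116 promoter windows. With 6 lower and 2 higher genes, and a run in most ribosomal protein genes, these windows cannot show whether the run separates lower from higher genes.

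The lower genes had short coding sequences, with a median of 276 nucleotides for the 9 lower genes, 622.5 for the 6 higher genes and 1305 for all genes tested. The 69 ribosomal protein genes tested had a median of 453 nucleotides. Across all genes with a coding length the direct difference had almost no linear relation to it (Pearson r -0.0094 across genes). Across the 69 ribosomal protein genes r was 0.16 for the direct difference and 0.34 for the control shift. Coding lengths were taken from the annotation, not from the 3' ends that were counted.

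NDUFC1 and SSR3 were the lower genes that encode no ribosomal protein. NDUFC1, a small subunit of respiratory complex I, measured 142, 165, 130 and 89.2 CPM with siGATA1-1 and 306, 271, 261 and 261 CPM with siGATA1-2 (-1.06, SE 0.26, adjusted p = 0.0423). It was also lower at 25 nM in controls (-0.87, SE 0.18, adjusted p = 0.00161). SSR3, a subunit of the translocon-associated complex of the endoplasmic reticulum, measured 276, 361, 259 and 241 CPM with siGATA1-1 and 528, 561, 542 and 386 CPM with siGATA1-2. The groups did not overlap (-0.82, SE 0.20, adjusted p = 0.0438), while the controls of both doses overlapped (181 to 475 CPM at 25 nM and 317 to 470 CPM at 6.25 nM, a shift of -0.10). The SSR3 difference beyond the control shift was -0.72 (95% interval -1.204 to -0.24, adjusted p = 0.724).

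The genes higher with siGATA1-1 had no called counterpart in the controls. PSPH, the phosphatase that completes serine synthesis, measured 71.1, 39.2, 70.7 and 41.6 CPM with siGATA1-1 and 13.9, 4.84, 0 and 0 CPM with siGATA1-2. These are 65 counts against 4 counts over 4 libraries each, and the fitted difference of 3.18 (SE 0.75, adjusted p = 0.0404) depends on the prior count. Controls at 25 nM ran from 7.43 to 58.8 CPM and controls at 6.25 nM from 18.0 to 53.7 CPM, so the 4 siGATA1-2 libraries lay below the controls of their dose. APOBEC3C, a cytidine deaminase of innate immunity, measured 145, 190.4, 106 and 167 CPM with siGATA1-1 and 32.4, 82.3, 10.4 and 79.5 CPM with siGATA1-2 (1.48, SE 0.36, adjusted p = 0.0404; 0.34 in controls).

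RNF40, a ubiquitin ligase that modifies histone H2B, measured 151, 148, 165 and 155 CPM with siGATA1-1 and 69.5, 43.6, 62.5 and 56.8 CPM with siGATA1-2 (1.41, SE 0.33, adjusted p = 0.0404; 0.21 in controls). PAICS, an enzyme of purine synthesis, measured 367, 322, 289 and 291 CPM with siGATA1-1 and 167, 223, 188 and 90.8 CPM with siGATA1-2 (0.93, SE 0.23, adjusted p = 0.0404; 0.32 in controls). With both genes the groups did not overlap. The next genes by p, FNDC10, ASNS, UXT-AS1 and DPP7, were not called, with differences of 3.08, 0.86, 1.23 and 0.94 and adjusted p-values of 0.0511 to 0.0519.

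The alpha globin genes HBA1 and HBA2 encode the same protein and share nearly all of their sequence, so their counts were also summed. The sum measured 1197, 1331, 1479 and 1063 CPM with siGATA1-1 and 649, 961, 806 and 600.2 CPM with siGATA1-2. Every siGATA1-1 library lay above every siGATA1-2 library, and the difference was 0.75 (SE 0.14, 95% interval 0.47 to 1.03, adjusted p = 0.00228). HBA1 alone differed by 0.68 (SE 0.15, adjusted p = 0.0135) and HBA2 alone by 1.00 (SE 0.25, adjusted p = 0.0457). In controls the sum moved by 0.06 between doses (SE 0.09). Beyond the control shift the difference was 0.68 (95% interval 0.35 to 1.02), with an adjusted p of 0.231. Against the controls of its own dose the difference of the sum was -0.49 with siGATA1-1 and -1.17 with siGATA1-2.

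Of 8 globin genes tested 2 were called higher (HBA1 and HBA2) and 0 lower, with a median direct difference of 0.34. HBZ, the embryonic zeta globin, measured 876, 913, 961 and 726 CPM with siGATA1-1 and 500.3, 963, 604 and 454 CPM with siGATA1-2. The groups overlapped through siGATA1-2 replicate 2, the highest of the 8 (0.45, SE 0.17, adjusted p = 0.360; exact permutation p = 0.143). In controls HBZ was lower by -0.38 at 25 nM (SE 0.11, adjusted p = 0.0559), so the difference beyond the control shift was 0.83 (95% interval 0.43 to 1.23). That adjusted p was 0.297. Of 8 fits that each left out 1 knockdown library, HBZ was called in 1, without siGATA1-2 replicate 2 (1.14, adjusted p = 8.19e-04), and not in 7. It was also called in 1 random thinning of libraries to equal depth (1.19, adjusted p = 5.35e-05). It was not called with DESeq2 (adjusted p = 0.398), limma voom (0.812), siNC-1 alone (0.656) or siNC-2 alone (0.795).

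The fetal gamma globins HBG1 and HBG2 are also near-identical copies and were summed. The sum measured 11746, 11660, 12011 and 8934 CPM with siGATA1-1 and 10607, 14061, 11848 and 9826 CPM with siGATA1-2. The groups overlapped (-0.06, SE 0.10, 95% interval -0.27 to 0.14). In controls the sum was lower at 25 nM by -0.45 (SE 0.07, adjusted p = 6.17e-06), and the difference beyond that shift was 0.39 (95% interval 0.14 to 0.64, adjusted p = 0.740). HBE1, the embryonic epsilon globin, differed by 0.21 (adjusted p = 0.634) and HBQ1 by 0.87 (adjusted p = 0.540). Point estimates beyond the control shift were above 0 for each of the 8 globin genes, from 0.14 (HBD) to 1.07 (HBA2), and 0 of them passed the test.

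**Figure D4:**
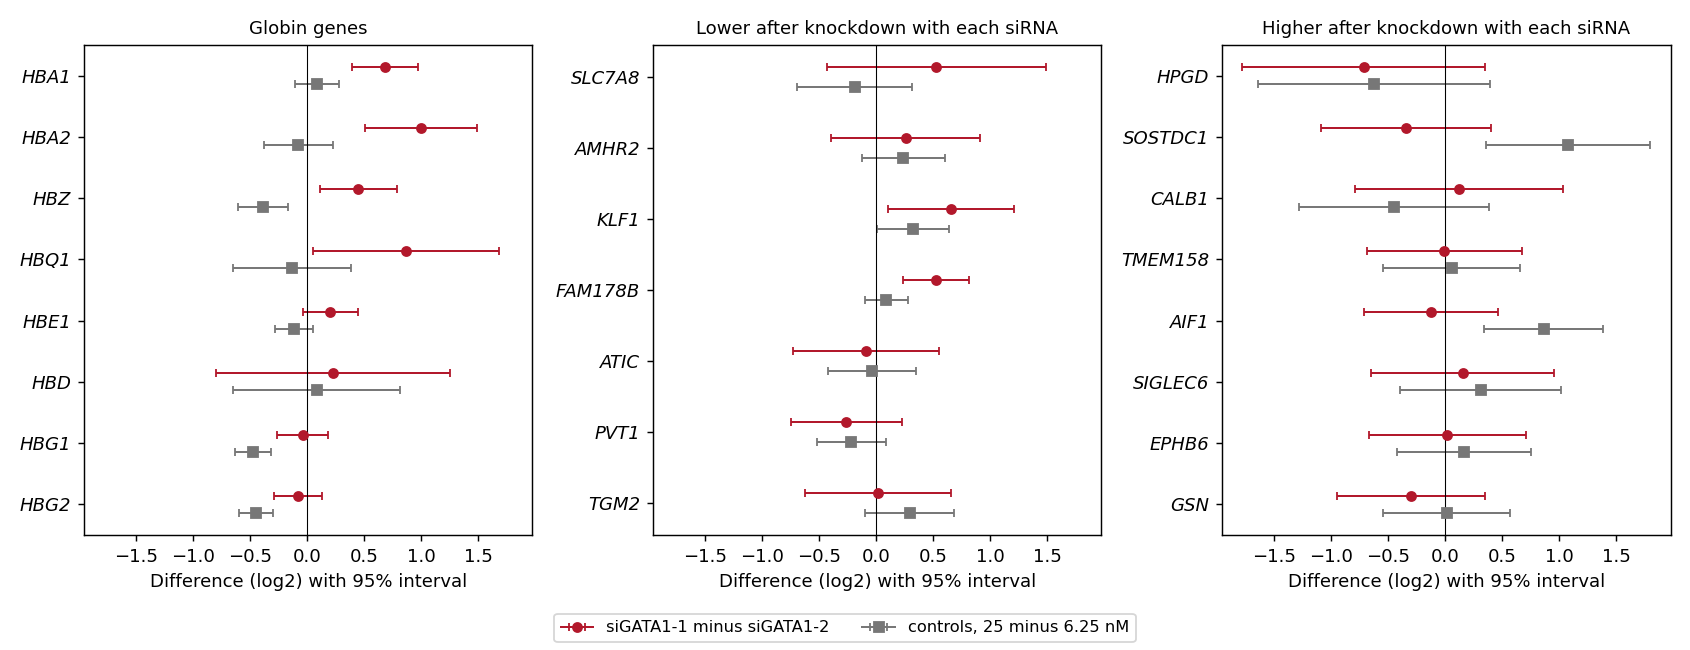
Differences on the log2 scale (horizontal axes) with 95% intervals for the 8 globin genes, 7 other genes lower and 8 genes higher after knockdown with each siRNA; red circles are siGATA1-1 minus siGATA1-2 and grey squares are controls, 25 nM minus 6.25 nM. The red intervals of HBA1, HBA2, HBZ and HBQ1 lie above 0, and those of HBG1 and HBG2 span 0 while their grey intervals lie below it.

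Genes that respond to GATA1 knockdown were set in the direct comparison to see whether the response differed in size. They were chosen by the mean of the 2 knockdown effects against dose-matched controls, in which 175 genes rose (2.6%) and 127 fell (1.88%); these effects use the same knockdown libraries, so what follows is a description. Of the 175 that rose, 140 had a direct difference below 0, and the median was -0.24. Of the 127 that fell, 95 had a direct difference above 0, and the median was 0.30; 3 of them were called higher with siGATA1-1. The 2 knockdown effects, each against controls of its own dose, differ by the direct difference minus the control shift, and the medians of that value were -0.31 for the genes that rose and 0.35 for those that fell. Fallen genes chosen with siGATA1-1 alone gave a median direct difference of 0.085 and those chosen with siGATA1-2 alone 0.59. For risen genes the medians were -0.21 and -0.40, so in both directions the size depended on which siRNA chose the genes. Of genes called with each siRNA separately and with at least 5 counts on average, 25 rose, with a median direct difference of -0.21, and 20 fell (GATA1 left out), with a median of 0.12.

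Of the 8 largest rises and 8 largest falls among the genes called with each siRNA, 0 passed the test in the direct comparison. FAM178B measured 1167, 1224, 1055 and 776 CPM with siGATA1-1 and 737, 978, 750.3 and 460 CPM with siGATA1-2, overlapping (0.53, 95% interval 0.24 to 0.82, adjusted p = 0.128). KLF1, an erythroid transcription factor, measured 128, 232, 177 and 149 CPM with siGATA1-1 and 64.9, 155, 219 and 34.1 CPM with siGATA1-2 (0.65, 95% interval 0.10 to 1.21, adjusted p = 0.461). Of the rises, TMEM158 differed by -0.01 (95% interval -0.68 to 0.67), EPHB6 by 0.02, AIF1, a protein of macrophages, by -0.12, and GSN, an actin-severing protein, by -0.30. HPGD, which inactivates prostaglandins, had the lowest of the 16 values (-0.71, 95% interval -1.78 to 0.35).

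Among 26 gene lists, calls in the direct comparison were found in the globin and ribosomal protein lists alone. Ribosome biogenesis genes, which build the ribosome, had a median of 0.40 with 19 of 24 above 0. Of its 3 most counted members, fibrillarin (FBL) differed by 0.37 (adjusted p = 0.418), the helicase DDX21 by 0.55 (adjusted p = 0.400) and nucleolin (NCL) by 0.07 (adjusted p = 0.953). For DNA replication the median was 0.33, and 21 of 25 genes lay above 0, with the helicase subunit MCM7 at 0.11 (adjusted p = 0.915) and the licensing factor CDT1 at 0.44 (adjusted p = 0.576). Heme synthesis genes had a median of 0.27 with 12 of 18 above 0, and actin cytoskeleton and adhesion genes a median of -0.20 with 17 of 26 below 0. Integrated stress and unfolded protein response genes had a median of 0.12 and interferon-stimulated genes of -0.11, with 0 of 22 and 0 of 12 called. The medians of these lists in the control dose shift were 0.10, -0.08, -0.17, -0.05, 0.05 and 0.04 in the same order.

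The direct difference minus the control dose shift had 0 of 6738 genes called (0%) in edgeR. Of these genes 333 had an unadjusted p under 0.05, and the smallest adjusted p was 0.297. The median SE of this value was 0.53 on the log2 scale, beside 0.43 for the direct difference. Differences of that size in single genes were often not detectable, so 0 calls do not show that differences beyond the control shift are absent. The genes of smallest p were HBZ and VAMP4 among the higher and NPLOC4 and STRBP among the lower. VAMP4, a vesicle fusion protein, measured 28.4, 69.995, 47.2 and 50.5 CPM with siGATA1-1 and 4.63, 14.5, 10.4 and 0 CPM with siGATA1-2, and moved by -0.69 in controls (3.37 beyond the shift, 95% interval 1.74 to 5.01). In siGATA1-2 replicates 1 and 3 those VAMP4 levels are 1 count each, so its difference rests on very few counts and depends on the prior count. STRBP, an RNA-binding protein, measured 51.2, 69.995, 76.6 and 77.3 CPM with siGATA1-1 and 171, 116, 167 and 125 CPM with siGATA1-2 (-1.50 beyond the shift, 95% interval -2.30 to -0.71). Neither gene was called in the direct difference, with adjusted p-values of 0.0906 and 0.223.

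Of the 15 direct calls, 8, 3, 8 and 7 held without siGATA1-1 replicate 1, 2, 3 and 4, and 6, 9, 6 and 8 held without siGATA1-2 replicate 1, 2, 3 and 4. RPL37 and RPLP2 held in each of these 8 fits, RPL37A in 7, RPS21 and RPS29 in 6, HBA1 in 5, RPL39 in 4, HBA2 and APOBEC3C in 3, PSPH in 2, and PAICS, RPS13 and SSR3 in 1. RNF40 and NDUFC1 held in 0 of the 8, with adjusted p-values of 0.0543 to 0.120 and 0.0501 to 0.263. The directions of these 15 genes did not change in any of the 8 fits, which ranges without overlap in these same libraries nearly fixed in advance. Without siNC-2 at 25 nM replicate 1, 13 genes were higher and 11 lower in the direct comparison, the same 15 among them; the other 9 were RPL23, RPS14, RPL26, RPL35, ATF5, ASNS, DPP7, UXT-AS1 and FNDC10, named after their values were seen. ATF5 is a stress-induced transcription factor and ASNS makes asparagine; they differed by 0.71 and 0.86 (adjusted p = 0.0246 and 0.0297).

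For each of the 15 called genes the 4 libraries of one siRNA lay apart from the 4 of the other. That gives p = 0.0286 in a two-sided exact permutation test (70 possible splits of 8 libraries), the smallest value that test can give. The genes were called from these same libraries, so the permutation p is no separate support. Among all 6738 genes tested, the ranges did not overlap for 2.85% in the higher and 2.24% in the lower direction. The design text calls the 4 libraries of a group biological replicates without naming cultures or days, so the p-values measure the spread between these libraries, which may be technical.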

How the data were processed

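The authors deposited raw counts for 24 libraries in 1 table keyed by gene symbol. The submitters' processing notes name STAR 2.5.6b and hg19; how reads were counted, with or without strand and molecular identifiers, is not given in these sources. Of 27311 symbols, 6738 passed edgeR's filterByExpr (minimum count 10, minimum total 15) and held 93.7% of the counts. All 24 libraries were fitted together in edgeR 4.0.16 (R 4.3.3; trimmed mean of M values, robust quasi-likelihood test, 1 mean per group), and calls were made where the p adjusted after Benjamini-Hochberg was under 0.05. CPM are counts scaled to normalized library sizes. The contrasts were siGATA1-1 minus siGATA1-2, controls at 25 nM minus 6.25 nM, and the first minus the second. In the 12 pairs of knockdown libraries of 1 group, the chi-square per degree of freedom between counts was 2.33 to 3.71, above sampling noise, so no library was taken for a copy. Named genes, with at least 5 counts on average, were GATA1; up to 15 called genes a direction in the direct difference, filled to 10 by smallest p; up to 5 called genes a direction in controls and beyond the control shift, or the 2 of smallest p where none was called; the 8 largest rises and falls called with each siRNA; and of each list the called members, or else up to 3 with the highest counts. The comparison, its genes and the 26 lists were chosen with earlier results of these data known. Promoter windows were matched by symbol to RefSeq (GRCh38.p14). Alternatives were DESeq2 1.42.0, limma 3.58.1 voom, other normalizations and filters, thinned counts, single libraries left out, a replicate block and single control siRNAs. The fit was tested on simulated data.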

Additional observations from a re-analysis of the deposited data

Results flagged for a closer look

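Among 44 groups of 4 libraries (22 genes in each knockdown group), 2 held a library far from the other 3 by Dixon's test, where chance gives about 1 in 20. GATA1 measured 242 CPM in siGATA1-1 replicate 3 against 300 to 308 CPM in the other 3 libraries. RPL37A measured 1497 CPM in siGATA1-1 replicate 3 against 1131 to 1192 CPM in the other 3. Both values belong to the shallowest siGATA1-1 library. Without it the GATA1 difference was 0.36, not called, and RPL37A remained called.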

How the results depend on the processing

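The 6 higher and 9 lower calls of the direct comparison became 12 and 15 with DESeq2 and 10 and 4 without a filter on low counts. There were 11 higher calls with library totals alone, 1 with the 8 knockdown libraries alone and 13 without the shallowest control library (chosen after seeing the data). In 1 random thinning of libraries to equal depth there were 3 lower calls, and the GATA1 level between the GATA1 siRNAs differed by -0.0305 (0.30 otherwise). With the replicate number as a block in a fit of the 8 knockdown libraries there were 13 higher and 14 lower calls, 12 of the 15 among them. The fit of the same 8 libraries without the block gave 1 higher and 6 lower calls. Correlations were 0.007 to 0.102 between same-numbered libraries of the 2 groups and -0.110 to 0.023 between differently numbered ones. Of the 8 libraries 7 were closest to their own number. The labels do not say whether same-numbered libraries were handled together, and the main fit holds no such block. Leaving out 1 knockdown library gave 0 to 11 higher and 3 to 10 lower calls, 3 to 7 of them ribosomal protein genes. Leaving out any 1 of the 24 libraries gave 0 to 1 calls beyond the control shift. Ribosomal protein calls numbered 4 without a filter and 3 with thinned libraries, and HBZ was the 1 gene called beyond the control shift with thinned libraries or without siGATA1-2 replicate 2. The 46 higher and 49 lower calls in controls became 86 and 103 with DESeq2, 7 and 13 with siNC-1 alone, and 14 and 14 with siNC-2 alone, while 27 were lower without a filter and 30 with thinned libraries. The median of fallen knockdown-responsive genes was 0.085 or 0.59 when siGATA1-1 or siGATA1-2 alone chose them. The cause of these changes was not tested, apart from the fewer samples, control siRNAs or counts that the settings themselves bring. The direct differences of the 15 called genes kept their sign in every alternative run, which ranges without overlap in these same libraries nearly fixed in advance.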

Other observations

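Genes of nonerythroid lineages were not called in the direct comparison. SPI1, the myeloid transcription factor, differed by -0.22 between siGATA1-1 and siGATA1-2 (SE 0.22, adjusted p = 0.817 in edgeR), LAPTM5, a lysosomal membrane protein of blood cells, by -0.08 (SE 0.17), and CD3D, a T-cell receptor subunit, by 0.37 (SE 0.20, adjusted p = 0.595). Of 10 myeloid genes tested 0 were called, with a median of -0.10. EPCAM, an epithelial adhesion protein, differed by 0.48 between the siRNAs (SE 0.38) and by -0.77 between doses in controls (adjusted p = 0.0706).

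Glycolysis genes of high level had small differences: GAPDH differed by 0.11 (SE 0.12), ENO1 by 0.15 (SE 0.11) and ALDOA by 0.12 (SE 0.11), and none passed the test. HSPA1A, an inducible heat shock protein, was lower at 25 nM in controls (-0.45, adjusted p = 0.0185) and differed by -0.35 between the siRNAs (adjusted p = 0.540). HIST1H1C, a linker histone, was higher at 25 nM in controls (0.43, adjusted p = 0.00452) and differed by 0.31 between the siRNAs (adjusted p = 0.497). Its level in siNC-2 at 25 nM replicate 1, the library that stands apart, was 8911 CPM against 3513 to 5040 CPM in the other 7 controls at 25 nM. Without that library the HIST1H1C shift was 0.27 (adjusted p = 0.0418), and with siNC-1 alone it was 0.21 (adjusted p = 0.772). For HSPA1A the shift without that library was -0.43 (adjusted p = 0.0250).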
